A study of Homo sapiens with 12 samples.

Results

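Antibody genes are not read from single intact genes but from segments, and the human genome annotation lists each segment as a gene of its own. The rows described here were all 213 of the 60504 rows in the table whose annotation class was an immunoglobulin V, D, J or C gene. They comprised 144 variable (V), 37 diversity (D), 18 joining (J) and 14 constant (C) rows. By position, 90 lay in the heavy-chain locus on chromosome 14, 50 in the kappa light-chain locus on chromosome 2, 48 in the lambda light-chain locus on chromosome 22, and 25 were orphons, that is, copies that lie apart from the 3 loci. The choice used the annotation alone and no measured value.

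The cells were TKO cells of KMS-11, an established line from a human myeloma, and are labelled as plasma cells with the genotype WHSC1(+/-) in every group. WHSC1 is an older name of NSD2, the enzyme that methylates histone H3 at lysine 36. WT cells carried a vector for wild-type NSD2, D1240A cells a vector for NSD2 with that substitution, and F1295A cells a vector for NSD2 with that other substitution, whereas TKO cells carried no vector. Each of the 4 groups had 3 biological replicates, and polyadenylated RNA was sequenced from the resulting 12 libraries. Cells with an empty vector were not analysed here, and NSD2 and the presence of a vector cannot be told apart in the comparisons with TKO. The labels do not say whether each line is 1 clone, and nothing says that the replicates came from separate lines, so p-values measure the spread between these cultures.

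A B cell builds a light chain by joining 1 V segment to 1 J segment, and a heavy chain by joining V, D and J segments, each time deleting or inverting the DNA between them. Splicing then attaches the constant segment, so that a productive chain shows in RNA as 1 dominant V row and 1 dominant C row. Plasma cells, from which myeloma arises, transcribe the joined genes at very high level, normally keep to either the kappa or the lambda light chain, and secrete the assembled antibody. Some myelomas have lost the heavy chain and make light chain alone.

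The V row with the highest level was IGKV3-15, on the minus strand of the kappa locus. The next V rows by level, IGKV1-37 and IGKV1-12, belong to another V family, and their V exons are shown because no further V row came near their level. All coordinates and sequences are of GRCh38 with GENCODE release 29. IGKV1-37 has its V exon at chr2:89297264-89297559 and IGKV1-12 at chr2:89040224-89040519, both on the minus strand. IGKV1-12 thus lies between IGKV3-15 and the joining segments, and IGKV1-37 lies beyond IGKV3-15. Capitals mark the bases at which each differs from the other.
IGKV1-37: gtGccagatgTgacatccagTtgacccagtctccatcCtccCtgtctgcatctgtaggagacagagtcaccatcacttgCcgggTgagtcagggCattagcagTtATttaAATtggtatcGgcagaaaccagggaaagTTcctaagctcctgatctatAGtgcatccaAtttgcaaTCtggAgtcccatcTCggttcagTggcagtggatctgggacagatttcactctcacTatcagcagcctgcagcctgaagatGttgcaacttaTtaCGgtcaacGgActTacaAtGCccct
IGKV1-12: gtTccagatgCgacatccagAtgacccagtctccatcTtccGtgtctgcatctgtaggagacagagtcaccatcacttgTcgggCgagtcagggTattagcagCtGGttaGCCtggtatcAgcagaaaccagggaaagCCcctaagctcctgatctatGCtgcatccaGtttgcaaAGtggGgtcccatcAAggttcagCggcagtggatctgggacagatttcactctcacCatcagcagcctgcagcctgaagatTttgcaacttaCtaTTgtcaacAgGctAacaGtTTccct
These 2 V exons differed from each other at 37 of 296 positions, an identity of 87.5%. Each has a copy in the distal part of the locus, IGKV1D-37 and IGKV1D-12, whose V exon holds the same 296 bases. Reads within the V exon cannot tell a copy from its partner, and the level of IGKV1-37 and IGKV1-12 is therefore that of the pair as the quantification divided it.

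The constant segment IGKC supplies the carboxyl-terminal domain of every kappa chain. Its row covers 523 bases. The last 120 bases of the coding part, chr2:88857364-88857483 on the minus strand, are shown with the codon of the final cysteine, the residue that bonds a kappa chain to a heavy chain, in capitals.
IGKC: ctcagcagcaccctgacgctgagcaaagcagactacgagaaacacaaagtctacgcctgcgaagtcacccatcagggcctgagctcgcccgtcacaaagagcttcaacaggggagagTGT
The 5 joining segments lie between the V segments and IGKC, and are shown because their length is set beside their values below. Whether length sets those values was not tested. Capitals mark the codons of the conserved phenylalanine-glycine-any-glycine motif that follows the third hypervariable loop.
IGKJ1: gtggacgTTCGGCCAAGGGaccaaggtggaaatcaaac
IGKJ2: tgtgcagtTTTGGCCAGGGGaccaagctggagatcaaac
IGKJ3: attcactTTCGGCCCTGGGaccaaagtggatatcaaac
IGKJ4: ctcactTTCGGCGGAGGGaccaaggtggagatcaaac
IGKJ5: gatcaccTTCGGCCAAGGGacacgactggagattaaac
IGKJ1 spans chr2:88861886-88861923, and the other 4 follow it towards IGKC. The 5 are 37 to 39 bases long.

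Values are FPKM, read fragments scaled by row length and by the library's mapped fragments, after rescaling between libraries. The depth of the libraries is unknown, so no counting error was worked out separately. SD values are the spread of the 3 replicates, whereas SE values and intervals come from the fit of all 12 libraries. Each library held 11849 to 12213 rows at 1 FPKM or more. NSD2 averaged 190.5 ± 3.89 FPKM in WT, 250.6 ± 8.47 in D1240A, 164.1 ± 6.56 in F1295A and 60.1 ± 2.26 in TKO cells (SD, n = 3 each), so the vector gene was highest in the groups labelled as carrying it. D1240A replicate 2 stood apart: structural RNAs such as ribosomal RNA made up 63.7% of its FPKM sum, against 1.91% to 3.01% in the other libraries. They were left out of all values below. Of 9 plasma cell markers, 8 averaged at least 1 FPKM, with IRF4 at 93.0 to 126.6 FPKM and XBP1 at 253.6 to 433.3 FPKM over the 12 libraries. SLAMF7 averaged only 1.02 FPKM. It was at 0.58 to 0.88 FPKM in WT, 1.58 to 2.11 in D1240A, 0.95 to 1.25 in F1295A and 0.33 to 0.64 in TKO libraries. The surface marker CD38 was low, at 0.16 to 1.20 FPKM. SDC1, or CD138, the surface proteoglycan used to recognise plasma cells, was at 0.16 to 0.30 FPKM in WT, 0.13 to 0.37 in D1240A, 0.15 to 0.35 in F1295A and 3.84 to 4.29 in TKO libraries. Its mean of 1.19 FPKM thus rests on the TKO libraries. None of the B cell, T cell, myeloid or erythroid markers averaged 1 FPKM, and CD22, the B cell lectin, was at 0 in all libraries.

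Most immunoglobulin rows were silent. In all, 178 of 213 were at 0 in every library, 35 were above 0 in at least 1, and 8 were above 0 in all 12. Only 7 rows reached 0.5 FPKM in 3 libraries and were tested: IGKC, 5 kappa V rows and IGHA1. The other 28 rows above 0 reached at most 1.26 FPKM in any library, and 10 of them were above 0 in a single library.

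**Figure D1:**
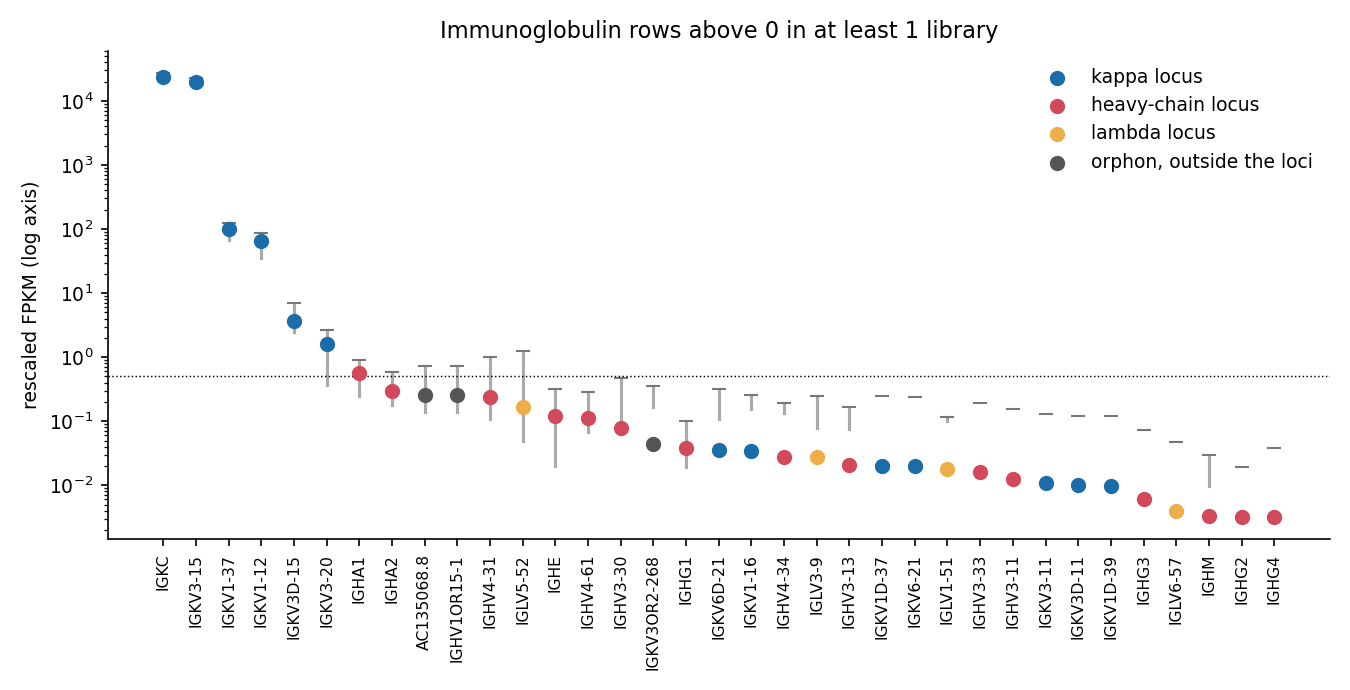
Rescaled FPKM on a log axis of the 35 immunoglobulin rows above 0 in at least 1 library, ordered by their mean over the 12 libraries (points, coloured by locus); grey bars run from the lowest to the highest value above 0, the tick marks the highest, and the dotted line is at 0.5 FPKM. IGKC averages 23268 FPKM and IGKV3-15 20042, IGKV1-37 and IGKV1-12 follow at 99.6 and 65.7, and no heavy-chain, lambda or orphon row averages above 0.56.

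Among constant rows, IGKC averaged 23268 FPKM over the 12 libraries. All 4 lambda constant rows, IGLC1, IGLC2, IGLC3 and IGLC7, were at 0 in every library. Of the 9 heavy-chain constant rows, IGHD, which encodes the constant region of IgD, was at 0, and 8 were above 0 in at least 1 library. IGHA1, the constant region of IgA1, averaged 0.56 FPKM and IGHA2, that of IgA2, 0.30 FPKM. IGHE averaged 0.12 FPKM, and IGHG1, IGHG2, IGHG3, IGHG4 and IGHM, which encode the constant regions of the IgG classes and IgM, averaged at most 0.04 FPKM. The cells thus held RNA of 1 light-chain constant segment at high level and of no heavy-chain constant segment above 1 FPKM.

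Among V rows, IGKV3-15 averaged 20042 FPKM, IGKV1-37 99.6, IGKV1-12 65.7, IGKV3D-15 3.72 and IGKV3-20 1.58 FPKM. A further 7 of the 44 kappa V rows were above 0, with at most 0.32 FPKM in any library, and 32 were at 0. IGKV1D-12 was at 0 in every library and IGKV1D-37 was above 0 in a single one, although their V exons are those of IGKV1-12 and IGKV1-37. In the heavy-chain locus 7 of 48 V rows were above 0, and the highest rescaled value, that of IGHV4-31 in D1240A replicate 2, was 1.01 FPKM. In the lambda locus 4 of 37 V rows were above 0. The highest, IGLV5-52, had 1.26 FPKM in D1240A replicate 1 and 0.60 FPKM in F1295A replicate 1, and at most 0.07 FPKM elsewhere.

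All 37 D rows and all 18 J rows were at 0 in all 12 libraries, the 5 IGKJ rows shown above included. The D rows are 11 to 37 bases long and the J rows 33 to 176 bases. Nearly all rows under 100 bases were at 0 too: of the 2548 rows of 1 to 99 bases, 2 were above 0 in any library, the higher reaching 5685 FPKM as deposited. IGLJ1, IGLJ2 and IGLJ3 are longer, at 127, 175 and 176 bases. Of the 4530 rows of 100 to 199 bases, 246 were above 0. Of the 3700 rows of 300 to 399 bases, a length like that of V rows, 1047 were above 0. All 4 D and 79 J rows of the T cell receptor loci were at 0 as well. The joining segment used by the kappa chain cannot be read from the table.

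For orientation, 21 of the 195 T cell receptor rows were above 0 in at least 1 library, and the highest were TRGV5 at 3.51 to 4.87, TRGV3 at 1.71 to 4.85 and TRAC at 0.31 to 1.98 FPKM. Of 194 immunoglobulin pseudogene rows 12 were above 0, the highest at 0.68 FPKM as deposited.

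IGKC was the row with the highest FPKM outside the structural RNAs in 11 of 12 libraries and held rank 4 in D1240A replicate 2. IGKV3-15 held rank 2 to 5. Together these 2 rows made up 99.5% to 99.7% of the FPKM of all immunoglobulin rows, and IGKV3-15 made up 98.9% to 99.5% of the kappa V rows. The V row stood at 0.83 to 0.92 times the constant row per length. All immunoglobulin rows together took 5.04% ± 0.06 of the FPKM sum in WT, 4.47% ± 0.74 in D1240A, 4.802% ± 0.04 in F1295A and 6.21% ± 0.06 in TKO cells (SD, n = 3 each). The share was 3.62% in D1240A replicate 2, and with only protein-coding and immunoglobulin rows in the sum it was 5.21% there, against 5.03% and 5.06% in the other D1240A libraries.

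The first question was whether cells with vector-borne NSD2 differ from TKO cells in the level of the kappa chain. IGKC was at 22538, 22984 and 22173 FPKM in the WT libraries, at 21577, 21170 and 21839 in the D1240A libraries, at 21702, 22405 and 22347 in the F1295A libraries, and at 25996, 27192 and 27290 in the TKO libraries. All 9 libraries with a vector lay below all 3 TKO libraries, and the libraries with a vector lay close together. In bulk RNA, fewer cells with the transcript and less of it per cell cannot be told apart.

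IGKV3-15 followed the same order. It was at 19735, 20058 and 20397 FPKM in WT, at 18955, 18683 and 18300 in D1240A, at 18754, 18824 and 18770 in F1295A, and at 22283, 22981 and 22758 in TKO libraries. Again no library with a vector reached a TKO library, and the WT libraries lay above those of both substitutions.

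**Figure D2:**
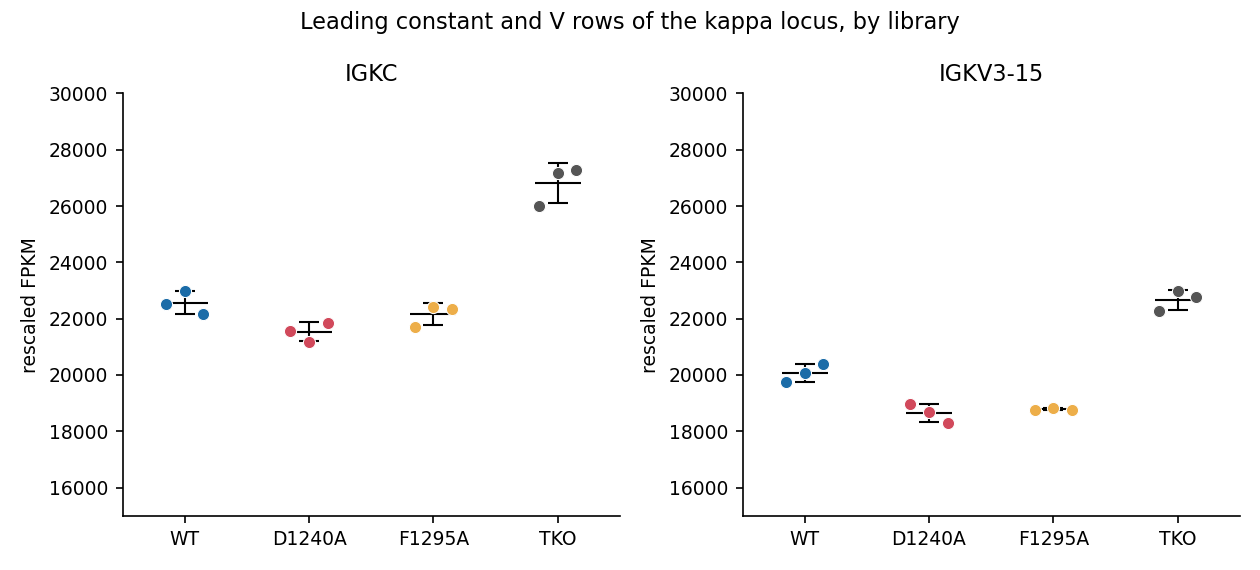
Rescaled FPKM of IGKC (left) and IGKV3-15 (right) in each library, with the mean and SD of each group of 3. The vertical axes do not start at 0. The TKO libraries lie above every other library in both panels, and IGKV3-15 in WT lies above D1240A and F1295A.

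In WT against TKO cells IGKC fell by 0.25 on the log2 scale (SE 0.04, limma adjusted p = 0.00041), that is 15.9% lower, and IGKV3-15 fell by 0.18 (SE 0.04, adjusted p = 0.00256), that is 11.5% lower. Of the 7 tested immunoglobulin rows 4 were called lower and 0 higher, where called means an adjusted p under 0.05 over the 14391 tested genes. If IGKC and IGKV3-15 are parts of the same spliced chain, their calls here and below are not independent results. Over all tested genes 23.9% were called lower and 25.8% higher, 49.7% in all. The median difference of the 7 rows was -0.25, against -0.01 over all tested genes. The call of IGKC depended on the processing: its adjusted p was 0.0893 on the values as deposited, without rescaling, and 0.0674 when genes of low level were also tested, and over all alternatives it ran from 0.000113 to 0.0893. IGKV3-15 lost its call under the same 2 settings, with adjusted p = 0.182 and 0.161.

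In D1240A against TKO cells IGKC fell by 0.32 (SE 0.04, limma adjusted p = 8.1e-05), or 19.7%, and IGKV3-15 fell by 0.28 (SE 0.04, adjusted p = 0.000105), or 17.8%. These and IGHA1 were the 3 rows called lower of 7 tested, with 0 called higher, against 21.2% called lower and 23.3% called higher over all tested genes, 44.5% in all. Those were 3348 genes higher and 3058 lower, against 1589 higher and 3807 lower on the values as deposited. The median of the 7 rows was -0.28, against 0.01 over all. Without D1240A replicate 2 the differences were -0.31 for IGKC and -0.28 for IGKV3-15, both called.

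In F1295A against TKO cells IGKC fell by 0.28 (SE 0.04, limma adjusted p = 0.000218), or 17.4%, and IGKV3-15 fell by 0.27 (SE 0.04, adjusted p = 0.000128), or 17.2%. They were the 2 rows called lower of 7, against 21.9% called lower over all tested genes, and 0 were called higher, against 23.8%, with 45.7% called in all. Those were 3429 genes higher and 3146 lower, against 2138 higher and 2672 lower on the values as deposited. With only the compared groups, 5 of the 7 rows were called lower and 1, IGKV3D-15, higher. Of all 14391 tested genes 3156 were then called lower and 3401 higher. The median of the 7 rows was -0.27, against 0.00 over all. The 3 comparisons share the TKO libraries, so their likeness is not a count of independent results.

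Marker levels also differed between TKO cells and the cells with a vector, in both directions. The summed level of the 6 B cell markers was 1.08 to 1.41 FPKM in WT, 0.92 to 1.27 in D1240A, 1.37 to 1.62 in F1295A and 2.35 to 2.59 in TKO libraries. That of the 9 plasma cell markers, most of it JCHAIN, was 4680 to 4912 FPKM in WT, 3820 to 4146 in D1240A, 4636 to 5044 in F1295A and 2337 to 2550 in TKO libraries. TNFRSF17, XBP1, PRDM1, IRF4 and JCHAIN were lower in every TKO library than in any other. SDC1, given above, was higher in every TKO library than in any other. So was MZB1, at 236.8 to 242.4 FPKM in WT, 210.8 to 224.4 in D1240A, 223.7 to 238.4 in F1295A and 252.4 to 263.7 in TKO libraries. CD38 reached its highest value in TKO, at 0.64 to 1.20 FPKM, but overlapped with D1240A, at 0.36 to 0.87. The part of these markers in the lower kappa level was not tested.

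The substituted forms were next set against wild-type NSD2. IGKC differed by -0.07 in D1240A against WT cells (95% interval -0.16 to 0.02, limma adjusted p = 0.297) and by -0.03 in F1295A against WT cells (-0.12 to 0.07, adjusted p = 0.82). IGKV3-15 differed by -0.11 in D1240A against WT (-0.19 to -0.02, adjusted p = 0.0803) and by -0.09 in F1295A against WT (-0.18 to -0.01, adjusted p = 0.249). Neither row passed the test, although every D1240A and F1295A library lay below every WT library for IGKV3-15. Of the 7 rows 2 were called higher and 0 lower in D1240A against WT, against 8.2% higher and 10.9% lower over all tested genes, 19.1% in all. Those were 1180 genes higher and 1574 lower, against 249 higher and 1359 lower on the values as deposited. In F1295A against WT limma called 0 of 7, against 2.71% over all tested genes (0.896% higher, 1.81% lower), or 129 genes higher and 261 lower, against 17 higher and 72 lower on the values as deposited. At an unadjusted p under 0.05 it would call 3, and none of the alternatives tried called any. Between D1240A and F1295A cells IGKC differed by -0.04 (-0.13 to 0.05, adjusted p = 0.607) and IGKV3-15 by -0.01 (-0.10 to 0.07, adjusted p = 0.904), and limma called 0 of 7 rows, against 6.09% over all (3.0% higher, 3.09% lower), with 1 at an unadjusted p under 0.05. Those were 432 genes higher and 444 lower, against 31 and 32 on the values as deposited and 65 and 26 with only the compared groups.

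**Figure D3:**
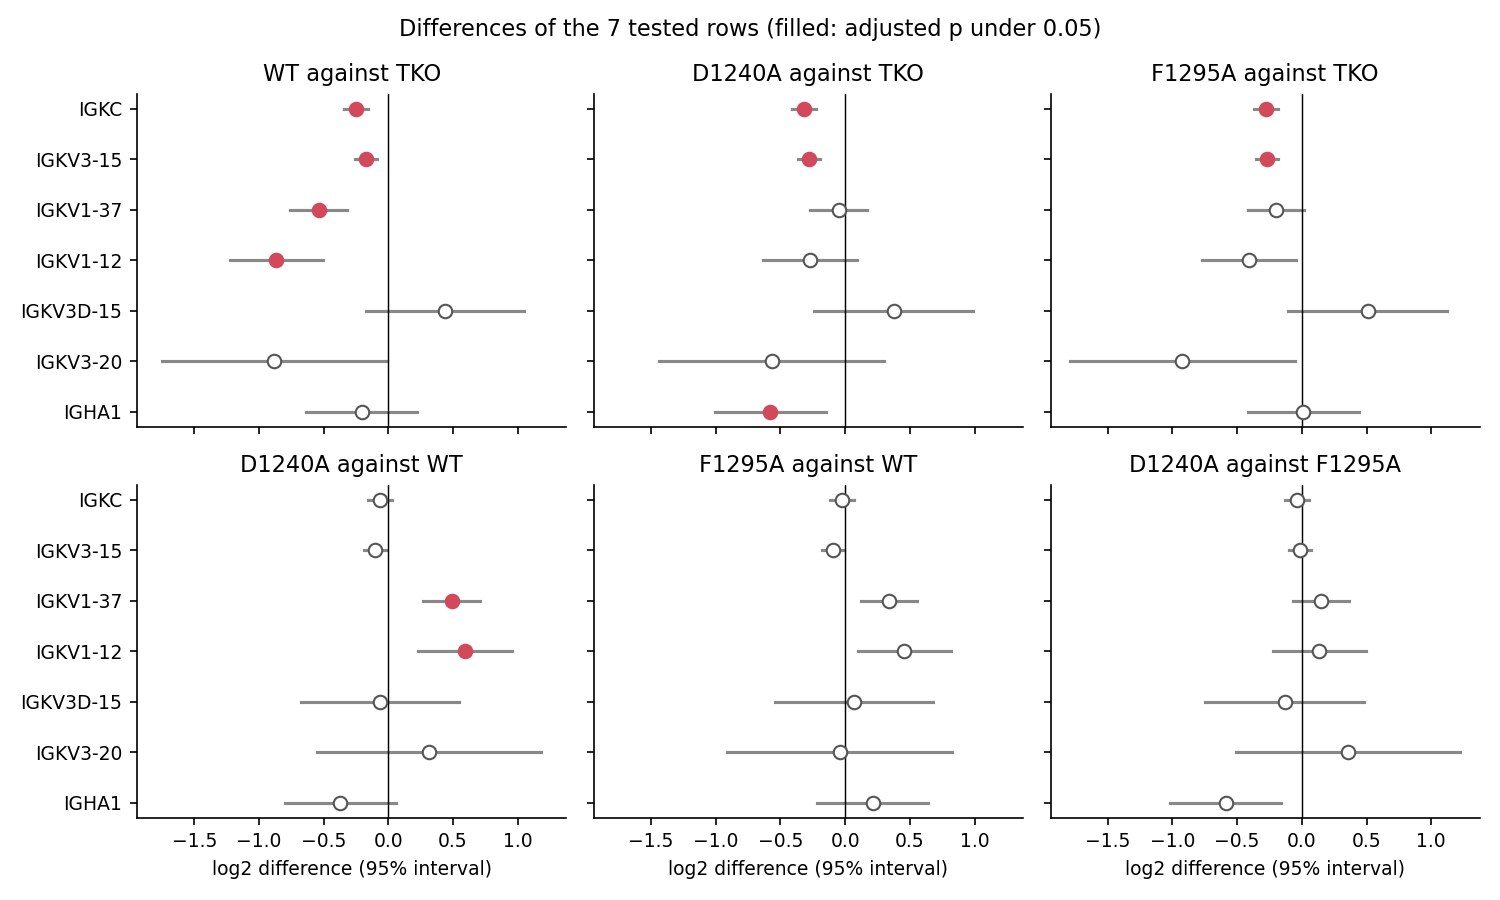
Log2 differences with 95% intervals of the 7 tested immunoglobulin rows in the 6 comparisons, the group named first minus the other; filled points have a limma adjusted p under 0.05. IGKC and IGKV3-15 are filled and left of 0 in all 3 comparisons with TKO, and IGKV1-37 and IGKV1-12 are filled right of 0 in D1240A against WT.

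The minor kappa V rows came next. IGKV1-37, a segment of the first V family that is not known to form functional chains, was at 82.6, 83.7 and 67.1 FPKM in WT, at 97.9, 105.4 and 125.1 in D1240A, at 91.8, 97.2 and 106.2 in F1295A, and at 107.7, 118.5 and 112.3 in TKO libraries. All WT libraries lay below all others, and D1240A and TKO libraries overlapped. IGKV1-37 fell by 0.54 in WT against TKO (SE 0.10, limma adjusted p = 0.000766) and was higher by 0.49 in D1240A against WT (SE 0.10, adjusted p = 0.00566). The call against WT was lost on the values as deposited, with 0.37 and adjusted p = 0.0799, and kept without D1240A replicate 2, with 0.51 and adjusted p = 0.0134. In F1295A against WT its difference was 0.34 (SE 0.10, adjusted p = 0.103) and in F1295A against TKO -0.20 (SE 0.10, adjusted p = 0.128), which was called with only the compared groups (adjusted p = 0.0254). In D1240A against TKO it was -0.05 (95% interval -0.27 to 0.17, adjusted p = 0.717).

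IGKV1-12, a functional segment of the same family, was at 50.5, 53.9 and 34.7 FPKM in WT, at 80.1, 55.9 and 73.1 in D1240A, at 55.4, 62.5 and 71.4 in F1295A, and at 86.8, 78.6 and 85.1 in TKO libraries. WT libraries were again below all others. IGKV1-12 fell by 0.87 in WT against TKO (SE 0.16, limma adjusted p = 0.000967) and was higher by 0.59 in D1240A against WT (SE 0.16, adjusted p = 0.0275). The call against WT was not stable: its adjusted p was 0.0501 with the replicate number as a block and 0.0798 without WT replicate 3, where the difference was 0.40, and it was also lost without D1240A replicate 1 (0.083) or replicate 3 (0.0841), on the values as deposited (0.143), without the filter (0.0754) and with only the compared groups (0.0901). Without D1240A replicate 2 the difference was 0.74 (adjusted p = 0.0115), and over all alternatives the adjusted p in D1240A against WT ran from 0.0115 to 0.143. In F1295A against TKO the difference of IGKV1-12 was -0.41 (adjusted p = 0.0628), called with only the compared groups in the fit (adjusted p = 0.00611) and without WT replicate 3, D1240A replicate 2 or F1295A replicate 3, with adjusted p = 0.0199, 0.0369 and 0.0486.

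Set against the dominant row, IGKV1-37 amounted to 0.33% to 0.42% of IGKV3-15 in WT, 0.52% to 0.68% in D1240A, 0.49% to 0.57% in F1295A and 0.48% to 0.52% in TKO libraries. IGKV1-12 amounted to 0.17% to 0.27% in WT, 0.30% to 0.42% in D1240A, 0.30% to 0.38% in F1295A and 0.34% to 0.39% in TKO libraries. IGKV1-12 stood at 0.52 to 0.82 times IGKV1-37 over the 12 libraries. The WT libraries were thus the lowest for both rows, in level and in percent of IGKV3-15.

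The share of IGKV3-15 among kappa V rows was 99.4% ± 0.11 in WT, 99.02% ± 0.11 in D1240A, 99.1% ± 0.08 in F1295A and 99.1% ± 0.01 in TKO cells (SD, n = 3 each). WT libraries lay above the D1240A, F1295A and TKO libraries without overlap, with an exact two-sided permutation p = 0.1 in each comparison (n = 3 each), the smallest that 3 against 3 allows, and 0.2 after adjustment over 6 comparisons. The other 3 comparisons had exact permutation p from 0.2 to 0.9.

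IGKV3D-15, the copy of IGKV3-15 in the distal part of the locus, was at 7.08, 3.26 and 2.46 FPKM in WT, at 3.22, 3.14 and 4.95 in D1240A, at 3.75, 3.88 and 4.72 in F1295A, and at 2.91, 2.56 and 2.75 in TKO libraries. This was 0.01% to 0.04% of the IGKV3-15 level, and the row is uncertain because reads can be divided between the copies. WT replicate 1 alone held the highest value. No difference of IGKV3D-15 was called with all 12 libraries, but it was called higher in WT against TKO without WT replicate 3 (0.72, adjusted p = 0.0436) and in F1295A against TKO without WT replicate 1 (0.51, adjusted p = 0.0243) or with only the compared groups (adjusted p = 0.00465). IGKV3-20, a frequently used functional segment of the same family, was at 2.42, 0.81 and 0.54 FPKM in WT, at 1.02, 1.88 and 1.60 in D1240A, at 1.44, 1.66 and 0.37 in F1295A, and at 2.68, 2.61 and 2.00 in TKO libraries. Its difference was -0.88 in WT against TKO (SE 0.40, limma adjusted p = 0.0861), -0.57 in D1240A against TKO (adjusted p = 0.272) and -0.92 in F1295A against TKO (adjusted p = 0.078). Without WT replicate 1 it was called in WT against TKO (-1.32, adjusted p = 0.0101) and in F1295A against TKO (adjusted p = 0.0328), and without F1295A replicate 3 in WT against TKO (adjusted p = 0.0446). With only the compared groups it was called in D1240A against TKO (adjusted p = 0.0478) and in F1295A against TKO (adjusted p = 0.0486).

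**Figure D4:**
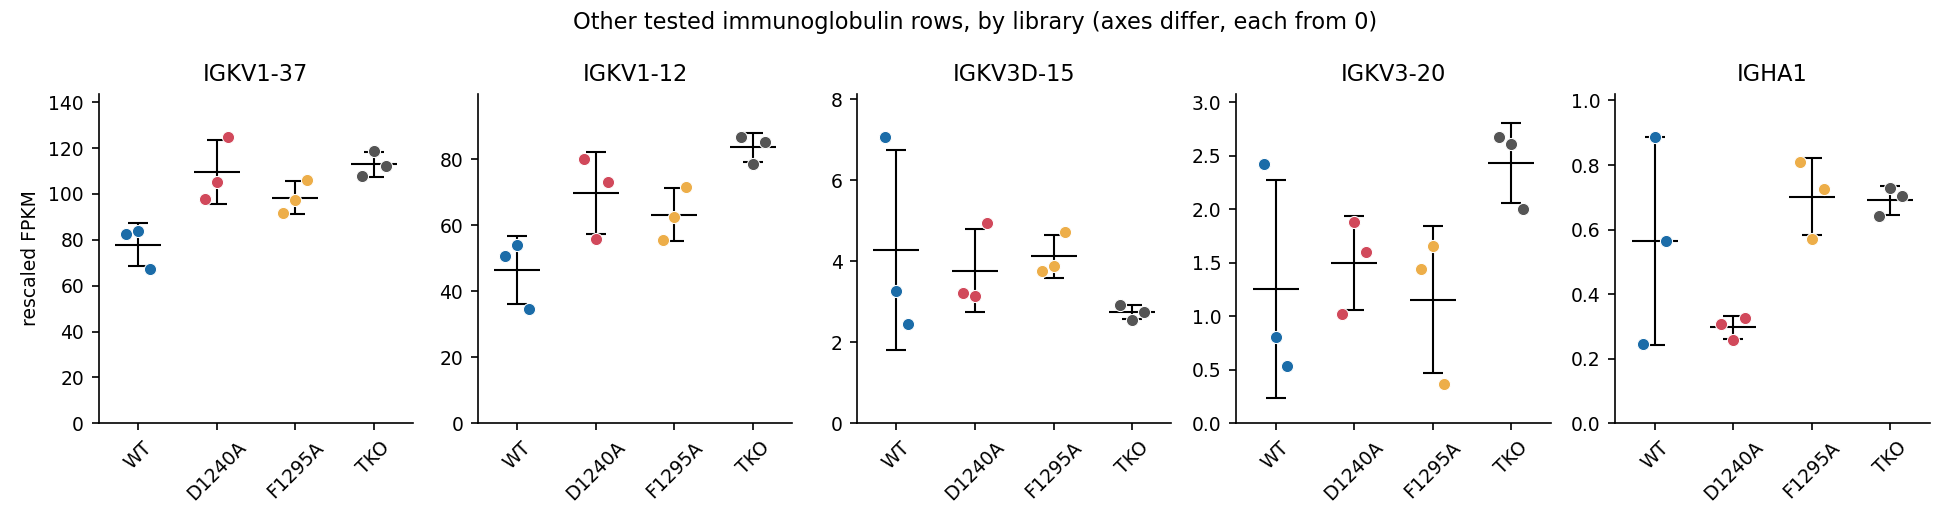
Rescaled FPKM of the other 5 tested immunoglobulin rows in each library, with the mean and SD of each group of 3; each vertical axis starts at 0 and has its own range. WT libraries are the lowest in IGKV1-37 and IGKV1-12, and the 3 D1240A libraries of IGHA1 lie between 0.26 and 0.33 FPKM.

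Of the heavy-chain rows, IGHA1 alone was tested. It was at 0.24, 0.89 and 0.56 FPKM in WT, at 0.31, 0.26 and 0.33 in D1240A, at 0.81, 0.57 and 0.73 in F1295A, and at 0.64, 0.73 and 0.70 in TKO libraries. D1240A libraries lay below those of TKO and F1295A, and WT libraries spread across both. IGHA1 fell by 0.58 in D1240A against TKO (SE 0.20, limma adjusted p = 0.0314). It lost that call when any 1 of the 6 compared libraries was left out, with adjusted p between 0.055 and 0.0803, among them 0.0761 without D1240A replicate 2. Its difference was -0.21 in WT against TKO (adjusted p = 0.416), 0.01 in F1295A against TKO (adjusted p = 0.975) and -0.59 in D1240A against F1295A (adjusted p = 0.103). Without WT replicate 1, the lowest WT value, IGHA1 was called lower in D1240A against WT (-0.61, adjusted p = 0.0321) and in D1240A against F1295A (-0.59, adjusted p = 0.0453). At this level the pseudocount of 0.5 takes up a large part of the value, so these differences understate the ratios.

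IGHA2, at 0.18 to 0.58 FPKM, shares most of its sequence with IGHA1, and reads of the 2 can be divided between them. The summed heavy-chain constant rows were at 0.90, 1.19 and 1.23 FPKM in WT, at 0.69, 0.79 and 0.61 in D1240A, at 1.24, 1.00 and 1.17 in F1295A, and at 0.99, 1.305 and 1.36 in TKO libraries. The log2 ratio of light-chain to heavy-chain constant level, with 0.5 added to both, was 13.78 ± 0.17 in WT, 14.14 ± 0.13 in D1240A, 13.73 ± 0.13 in F1295A and 13.94 ± 0.13 in TKO cells (SD, n = 3 each). D1240A libraries lay above WT and F1295A libraries without overlap, each with an exact two-sided permutation p = 0.1, the smallest possible with n = 3 each, and 0.3 after adjustment over 6 comparisons. Against TKO cells the exact permutation p was 0.3 in WT, 0.2 in D1240A and 0.2 in F1295A.

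A pair of orphon V rows on chromosome 15, IGHV1OR15-1 and AC135068.8, had the same 353 bases and the same values in every library, so they are 1 measurement. They were at 0.43, 0.16 and 0.29 FPKM in WT, at 0.14, 0 and 0.50 in D1240A, at 0.73, 0.63 and 0.25 in F1295A, and listed at 0 in all 3 TKO libraries. They were below the filter and not tested after rescaling. Both were called higher in F1295A against TKO, by 1.02, when every row above 0 was tested (limma adjusted p = 0.0153) and on the values as deposited, where they passed the filter (adjusted p = 0.0102). They passed it there through F1295A replicates 1 and 2 and D1240A replicate 3 alone. With 0 in every TKO library, a test against TKO could only find the pair higher.

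The lower kappa level was then set beside the genes known to act on antibody production, in 5 lists. The transcription factor list holds regulators that bind immunoglobulin enhancers and promoters or set the plasma cell state. Of its 24 tested members of 27, 10 rose and 9 fell in WT against TKO, 10 rose and 5 fell in D1240A against TKO, and 9 rose and 8 fell in F1295A against TKO. The shares of all tested genes that rose were 25.8%, 23.3% and 23.8% in the same order, and those that fell 23.9%, 21.2% and 21.9%. The medians of the list were 0.09, 0.09 and -0.03. On the values as deposited 9 members rose and 4 fell in WT against TKO and 7 rose and 6 fell in D1240A against TKO. Of the 14450 genes tested there, 2609 rose and 2688 fell in WT and 1589 rose and 3807 fell in D1240A against TKO. XBP1, the factor that drives the secretory programme of plasma cells, rose by 0.73 in WT, 0.45 in D1240A and 0.61 in F1295A against TKO. PRDM1, the repressor that fixes the plasma cell state, rose by 0.69, 0.48 and 0.53 in the same order, and IKZF3, the Aiolos zinc-finger factor, by 1.03, 0.92 and 0.90. IRF4, the regulator needed for plasma cell survival, rose by 0.40 in WT and 0.23 in D1240A against TKO, the second a call lost on the values as deposited (0.08, adjusted p = 0.357).

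Other factors of the list fell in some or all of the comparisons with TKO. TCF3, whose E2A proteins bind E-box sites of the immunoglobulin enhancers, fell by 0.18 in WT, 0.26 in D1240A and 0.21 in F1295A against TKO. POU2AF1, the coactivator of octamer-binding factors at V promoters, fell by 0.17 in WT and 0.11 in F1295A, where the call was lost without F1295A replicate 3, TKO replicate 1 or TKO replicate 3 (adjusted p from 0.0724 to 0.0832). In D1240A cells POU2AF1 differed from TKO by 0.02 (limma adjusted p = 0.683), unlike IGKC, and was higher than in WT by 0.19 (adjusted p = 0.00297). On the values as deposited TCF3 lost its call in WT (adjusted p = 0.0519) and POU2AF1 its calls in WT (0.0927) and F1295A (0.164). ID2, which binds E proteins and keeps them from DNA, was at 29.3, 28.7 and 25.0 FPKM in WT, at 48.7, 47.7 and 50.7 in D1240A, at 36.9, 37.2 and 38.4 in F1295A, and at 114.7, 114.6 and 117.4 in TKO libraries. It fell by 2.05 in WT, 1.23 in D1240A and 1.61 in F1295A against TKO (SE 0.05 each, limma adjusted p at most 7.3e-09), and was higher by 0.82 in D1240A and by 0.43 in F1295A against WT, the second a call lost on the values as deposited (adjusted p = 0.0798). PAX5, EBF1 and SPI1, B cell factors that plasma cells silence or keep low, reached at most 0.17 FPKM in any library.

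Genes of antibody assembly, folding and secretion mostly rose against TKO. Of 42 members, all tested, 30 rose and 2 fell in WT against TKO, 25 rose and 5 fell in D1240A against TKO, and 30 rose and 4 fell in F1295A against TKO, with medians of 0.31, 0.18 and 0.27. Over all tested genes 25.8%, 23.3% and 23.8% rose in these comparisons. Without rescaling, 7 of the list rose and 5 fell in D1240A against TKO, where 1589 of 14450 tested genes rose and 3807 fell. JCHAIN, which links IgA and IgM into polymers, was at 3673, 3901 and 3788 FPKM in WT, at 3300, 2991 and 3145 in D1240A, at 3884, 4127 and 3726 in F1295A, and at 1606, 1805 and 1782 in TKO libraries. It rose by 1.13 in WT, 0.86 in D1240A and 1.18 in F1295A against TKO (SE 0.06 each, limma adjusted p at most 2.2e-07). Its ratio to IGKC was 0.17 ± 0.004 in WT, 0.15 ± 0.01 in D1240A, 0.18 ± 0.01 in F1295A and 0.06 ± 0.002 in TKO cells (SD, n = 3 each).

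In D1240A cells JCHAIN was also lower by 0.27 than in WT (adjusted p = 0.00625) and by 0.31 than in F1295A (adjusted p = 0.01), the second a call lost on the values as deposited (adjusted p = 0.145) and with only the compared groups (0.0764). HERPUD1, which acts in the degradation of misfolded proteins, rose by 0.90 in WT, 0.56 in D1240A and 0.74 in F1295A against TKO. TXNDC5, a disulfide isomerase of the endoplasmic reticulum, rose by 0.84, 0.33 and 0.61 in the same order. Of the translocation channel and its partners, SEC61G rose by 0.36, 0.20 and 0.28 and SSR2 by 0.30, 0.27 and 0.33, whereas SSR4 fell by 0.31 in D1240A against TKO. On the values as deposited TXNDC5 (0.18, adjusted p = 0.103), SEC61G (0.05, adjusted p = 0.774) and SSR2 (0.12, adjusted p = 0.337) lost their calls in D1240A against TKO, and SEC61G also in F1295A against TKO (0.23, adjusted p = 0.139). Of this list 0 rose and 19 fell in D1240A against WT, and 0 rose and 3 fell in F1295A against WT, where 8.2% and 0.896% of all tested genes rose and 10.9% and 1.81% fell. In the deposited values 12 and 0 of the list fell in these comparisons, where 1359 and 72 of 14450 tested genes fell.

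**Figure D5:**
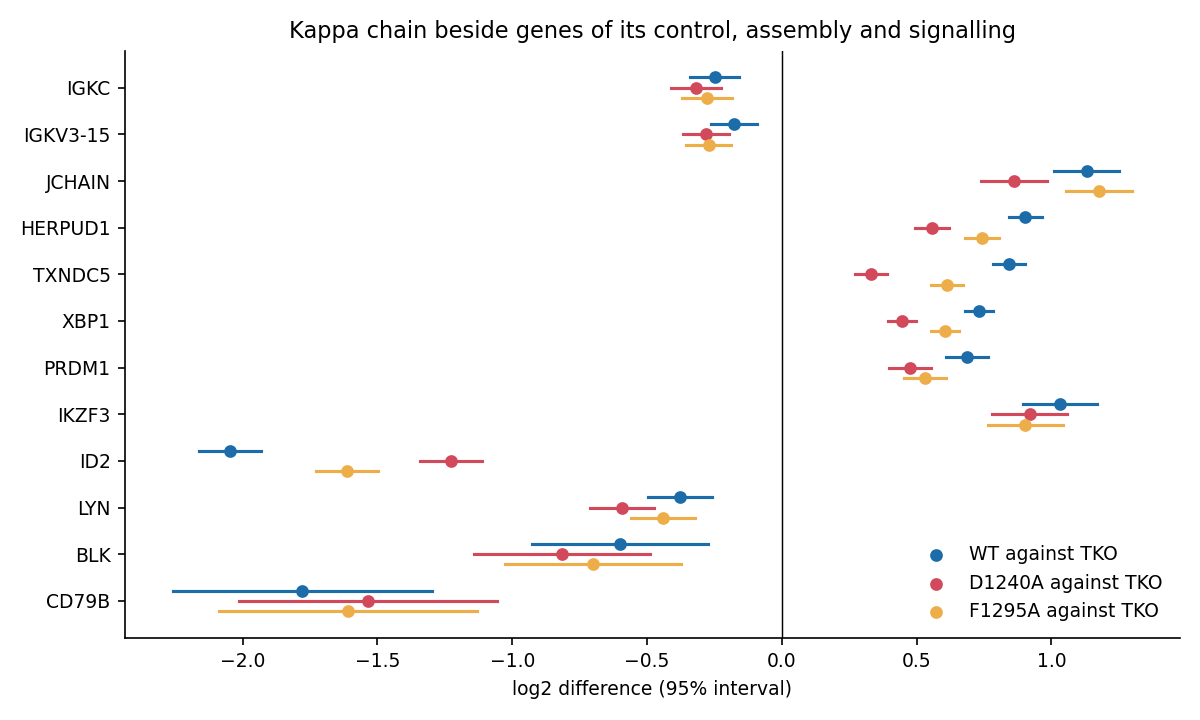
Log2 differences with 95% intervals against TKO cells of IGKC, IGKV3-15 and 10 genes of their control, assembly and signalling, for WT, D1240A and F1295A cells. The kappa rows lie just left of 0, JCHAIN, HERPUD1, TXNDC5, XBP1, PRDM1 and IKZF3 right of it, and ID2, LYN, BLK and CD79B left of it. CD79B passed the filter through its TKO values alone.

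The enzymes that cut and modify the segments were at or near 0: RAG1 reached at most 0.12 FPKM and RAG2 0.02, both the recombinase that starts V(D)J joining, and DNTT, which adds bases at the joints, was at 0 in all libraries. Of the 14 tested members of that list of 18, which are mostly general repair factors, 4 rose and 5 fell in WT against TKO, 3 rose and 4 fell in D1240A, and 4 rose and 2 fell in F1295A. Over all tested genes the shares rising were 25.8%, 23.3% and 23.8% in these comparisons, and those falling 23.9%, 21.2% and 21.9%. Without rescaling, 3 rose and 1 fell in WT against TKO, where 2609 of 14450 tested genes rose and 2688 fell. LIG4, the ligase of end joining, rose by 0.49 in WT, 0.57 in D1240A and 0.45 in F1295A against TKO, and POLM, a polymerase that fills ends in kappa joining, by 0.43, 0.53 and 0.49. XRCC5, the larger Ku subunit, fell by 0.19, 0.17 and 0.18. XRCC5 lost its calls in WT (adjusted p = 0.0693) and F1295A (0.0525) on the values as deposited.

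Partners of the surface receptor came next. Of 19 genes 6 were tested, and of these 5 fell in WT, 4 in D1240A and 4 in F1295A against TKO, with 0 rising, against 23.9%, 21.2% and 21.9% called lower over all tested genes. CD81, a membrane protein of the B cell coreceptor, was the highest, at 81.0 to 91.8 FPKM in the 9 libraries with a vector, against 101.5 to 105.3 FPKM in the TKO libraries. It fell by 0.27 in WT, 0.23 in D1240A and 0.28 in F1295A. FCMR, a receptor for IgM, was not called in any comparison, with -0.004 in WT against TKO (adjusted p = 0.988). CD79B, a signalling chain of the B cell receptor, was at 0.08, 0.16 and 0.32 FPKM in WT, at 0.41, 0.09 and 0.48 in D1240A, at 0.44, 0.24 and 0.14 in F1295A, and at 1.81, 1.71 and 1.97 in TKO libraries. It fell by 1.78 in WT, 1.53 in D1240A and 1.61 in F1295A. CD79B passed the filter of 0.5 FPKM through its TKO values alone, so a test against TKO could only find it lower. It is part of each count of falling partners above. The receptor kinases LYN, which fell by 0.38, 0.59 and 0.44, and BLK, which fell by 0.60, 0.82 and 0.70, moved likewise. CD79A, the other signalling chain, fell by 0.68 in WT, a call lost without WT replicate 1, WT replicate 3 or TKO replicate 1 (limma adjusted p from 0.0523 to 0.0664). It was at 0.12, 0.23 and 0.07 FPKM in WT and at 0.60, 0.52 and 0.44 in TKO libraries. CD79A passed the filter through TKO replicates 1 and 2 and F1295A replicate 2, and no WT library reached 0.5 FPKM. Its choice for testing thus leaned towards a fall in WT, and it is part of the WT count above. Of the surrogate light chain, VPREB1 was at 0 in all libraries and IGLL1 reached at most 0.14 FPKM.

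The last list holds genes inside or beside the 3 loci that are not themselves V, D, J or C segments. It shares SDF2L1, a chaperone cofactor, with the assembly list and VPREB1 and IGLL5 with the receptor list. Of 20 tested, 11 rose and 2 fell in WT, 6 rose and 3 fell in D1240A, and 9 rose and 1 fell in F1295A against TKO, where 25.8%, 23.3% and 23.8% of all tested genes rose and 23.9%, 21.2% and 21.9% fell. SDF2L1 is among those that rose in WT and F1295A. In the deposited values 2 rose and 4 fell in D1240A against TKO, where 1589 of 14450 tested genes rose and 3807 fell. RPIA, a pentose phosphate enzyme beside IGKC, differed by -0.01 in WT against TKO (95% interval -0.09 to 0.06, limma adjusted p = 0.764). Inside the lambda locus PRAME, a cancer-testis antigen, rose by 1.25 in WT, 1.33 in D1240A and 1.17 in F1295A, whereas RAB36, a small GTPase beyond the constant end of that locus, fell by 0.79, 0.88 and 0.85. CRIP1, a small LIM protein beside the heavy-chain locus, rose by 0.48, 0.27 and 0.48, the D1240A call being lost on the values as deposited (0.12, adjusted p = 0.426). An unnamed transcript on the strand of IGKC that spans it, AC244205.1, was at 0 to 0.48 FPKM.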

How the data were processed

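Polyadenylated RNA was measured in 12 libraries of 4 groups. Per the submitters' processing notes, the authors used Trimmomatic 0.36, FastQC 0.11.4, STAR 2.7.9a, RSEM 1.3.1 and DESeq2 with GRCh38, and deposited FPKM values, 1 per row and library. No source used here gives the annotation release or the strand setting, and depth is unknown. From these values, 7089 structural RNA rows were left out. Scaling factors came from a trimmed mean of log ratios (30% cut from each side, rows averaging at least 1 FPKM). The 14391 rows that reached 0.5 FPKM in 3 or more libraries entered 1 fit of all 12 libraries in limma 3.58.1 under R 4.3.3. Its response was log2(FPKM + 0.5), its single factor the group, and p-values were adjusted by Benjamini-Hochberg over all tested genes. Differences are thus on the log2(FPKM + 0.5) scale and understate those of low genes. Ratios and shares were compared by exact two-sided permutation tests. The fit was tested on simulated data. Sequences and coordinates came from GENCODE release 29, in which all 213 rows had the same symbol and class.

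Members and lists were chosen with earlier results of these data known. The genes named were NSD2, every constant row with a mean of at least 0.5 FPKM, the 3 highest V, D and J rows of each locus above that mean, the other tested immunoglobulin rows, and of each list the 6 tested members with the highest mean and the 4 with the smallest adjusted p, with the 3 highest T cell receptor rows. Other immunoglobulin rows, list members named for being at or near 0, and AC244205.1 were named after their values were seen. Some items that these rules cover are not reported here. The fit in limma was the planned one, since a count test was foreseen only for a table of counts. Alternatives were other scalings, filters and pseudocounts, structural RNAs kept, a replicate block, only the compared groups and each library left out. Same-numbered libraries did not deviate together (correlations of -0.05 to 0.09), so the numbers were not taken to pair them. Tables and permutation tests used pandas 2.3.3, numpy 2.4.6 and scipy 1.17.1, and figures matplotlib 3.10.9, all under Python 3.11.15.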

Additional observations from a re-analysis of the deposited data

How the results depend on the processing

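The immunoglobulin rows called moved with some settings, and the cause was not tested. In WT against TKO 2 rows were called both on the values as deposited, of 9 tested, and without the filter, of 35 tested. Over all genes 5297 of 14450 and 7299 of 29605 were called there. IGKC was at -0.28 and -0.25 and no longer called. In F1295A against TKO 4 of 9 and 4 of 35 were called under those settings, and each time 2 of them were the orphon pair that is 1 measurement. With only the compared groups in the fit 6 of 7 were called. Over all genes 4810 of 14450, 6351 of 29605 and 6557 of 14391 were called under these settings, in the same order. In D1240A against WT 0 were called on the values as deposited, and 1 without the filter, with only the compared groups and with the replicate block. Over all genes 1608 of 14450, 2245 of 29605, 1772 of 14391 and 2355 of 14391 were called under these settings, in the same order. The block left the other counts of immunoglobulin rows as they were, and over all genes 525 were called with it in D1240A against F1295A, against 876 without. That 876 became 432 without the filter, 91 with only the compared groups, 63 on the values as deposited and 305 to 416 without D1240A replicate 2 or 3 or F1295A replicate 2 or 3. With only the compared groups, on the values as deposited and without WT replicate 1, the 2754 genes called in D1240A against WT became 1772, 1608 and 1762. The 390 in F1295A against WT became 255 with only the compared groups, 89 on the values as deposited and 149 to 254 without any 1 of the 6 compared libraries. Leaving out 1 library gave 4 to 5 rows in WT against TKO, 2 to 3 in D1240A against TKO, 2 to 4 in F1295A against TKO, 1 to 3 in D1240A against WT, 0 to 1 in D1240A against F1295A and 0 in F1295A against WT. IGKC against TKO then ranged from -0.27 to -0.24 in WT, from -0.34 to -0.30 in D1240A and from -0.30 to -0.26 in F1295A.

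IGHA1, near the filter, was unstable. Its call in D1240A against TKO was lost without the filter (-0.58, adjusted p = 0.0636), and leaving out 1 library gave -0.61 to -0.54 there, -0.42 to 0.0302 in WT against TKO, -0.0538 to 0.0898 in F1295A against TKO, -0.0208 to 0.43 in F1295A against WT, -0.61 to -0.16 in D1240A against WT and -0.67 to -0.52 in D1240A against F1295A. In D1240A against WT and D1240A against F1295A it was called without WT replicate 1, at -0.61 and -0.59. On the values as deposited IGHA1 reversed in F1295A against TKO, to -0.0243. Among differences that were not called, leaving out 1 library gave -0.0226 to 0.00275 for IGKV3-15 in D1240A against F1295A, -0.15 to 0.0260 for IGKV1-37 in D1240A against TKO, -0.35 to 0.33 for IGKV3D-15 in D1240A against WT and -0.21 to 0.46 in F1295A against WT, -0.35 to 0.40 for IGKV3-20 in F1295A against WT and -0.0554 to 0.60 in D1240A against F1295A, and -0.0244 to 0.00117 for RPIA in WT against TKO.

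The immunoglobulin share of the FPKM sum was 4.91% in WT, 3.62% in D1240A, 4.69% in F1295A and 6.08% in TKO cells with structural RNAs kept. With protein-coding and immunoglobulin rows alone, a choice made after seeing the data, it was 5.20% in WT, 4.95% in F1295A and 6.39% in TKO cells. On the values as deposited the median of all tested genes moved to -0.12 in D1240A against TKO and to -0.10 in D1240A against WT, and 1589 genes were called higher and 3807 lower in D1240A against TKO, against 3348 and 3058 after rescaling. Counts of called list members then became 7, 0 and 0 for the transcription factors in D1240A against WT, F1295A against WT and D1240A against F1295A. After rescaling 7 rose and 4 fell, 1 rose and 3 fell, and 3 rose and 1 fell, in that order. Over all 14450 genes tested on the values as deposited, 5297, 5396 and 4810 were called in WT, D1240A and F1295A against TKO. In D1240A and F1295A against WT 1608 and 89 were called, and in D1240A against F1295A 63. For assembly and secretion the counts on the values as deposited were 12 and 19 in D1240A and F1295A against TKO. They were 12 and 0 in D1240A and F1295A against WT and 0 in D1240A against F1295A. In the last of these 0 rose and 12 fell after rescaling. For V(D)J recombination the deposited counts were 4 and 3 in WT and F1295A against TKO and 1 in D1240A against WT. In D1240A against F1295A the count was 0 (1 with median-ratio scaling). After rescaling 3 rose and 1 fell in D1240A against WT, and 1 rose and 1 fell in D1240A against F1295A. For the neighbours the deposited counts were 8 and 5 in WT and F1295A against TKO and 0 in D1240A against F1295A. In the last of these 0 rose and 3 fell after rescaling. Without D1240A replicate 2, 5 assembly genes were called in F1295A against WT, 2 V(D)J genes and 0 receptor partners in D1240A against WT, and 0 V(D)J genes and 0 neighbours in D1240A against F1295A. Of all 14391 tested genes 509, 2231 and 378 were then called in these comparisons, in the same order. With all libraries 0 receptor partners rose and 1 fell in D1240A against WT. Depth is unknown, so rows listed at 0 are not shown to be absent.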
